A study of Brassica napus with 33 samples.

Results

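Small RNA was compared between ovules of the selfed F1 of Brassica napus and the mean of its parents at 15 days after pollination (OS15). Express617 is an inbred winter oilseed rape and the maternal line, G3D001 is an inbred semi-synthetic semi-winter line and the paternal line, and the F1 is their hybrid. All 3 genotypes were selfed by hand, so the F1 ovules were carried by heterozygous plants and held segregating embryos. Each ovule library pooled ovules of several plants, and maternal tissue and embryo were not separated. There were 3 libraries per genotype, 9 of the 33 libraries of the series. The F0, ovules of Express617 pollinated with G3D001 (3 libraries), and the leaf and 30-day (OS30) libraries of these 3 genotypes (9 per stage) were used for the levels of the same loci, for the same test at the other stages and to compare the F1 with the F0 at OS15. The study describes a duplication of chromosome A02 and a deletion of C02 in G3D001, and also large-scale deletions within C01. Mid-parent values in these regions therefore come from parents that differ in copy number.

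Most small RNAs of plants are 24-nt siRNAs, which are cut from the transcripts of transposons and repeats and guide DNA methylation to matching loci. Small RNAs of 21 and 22 nt include microRNAs, which act on mRNAs. In ovules and seed coats of Brassica and Arabidopsis, a minority of siRNA loci is known to give a very large part of all siRNA. Each locus here is a cluster, a stretch of the Express617 assembly where small RNA reads pile up, and its level is its count per 1000000 reads on clusters (CPM), scaled with TMM factors. The size class of the reads in a cluster, the genes around it and marker genes of the tissue were not analysed here. Ovules cannot be separated into tissues in these data, so more cells of a type and more RNA per cell cannot be told apart.

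Of 91060 clusters, 90918 had a count in the 9 libraries and were tested. The libraries held 13973699 to 18575920 reads on clusters. Pairs of G3D001 replicates stood further apart than other pairs. Their counts gave a chi-squared value of 32.8 to 46.1 per degree of freedom, against 5.18 to 10.2 in Express617 and 4.85 to 8.21 in the F1. The TMM factors were 0.813 to 0.872 in the F1, 1.01 to 1.16 in Express617 and 1.02 to 1.18 in G3D001. Because the factors separate the F1 from its parents, scaling moves every ratio to the mid-parent value. Over the 18190 clusters with a mean of at least 1 CPM, the median log2 ratio of the F1 to the mid-parent was 0.08 with TMM, 0.01 with RLE size factors and -0.30 with total counts. The main counts are therefore given with total counts too.

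The F1 lay above the mid-parent value in 1802 clusters (1.98% of those tested) and below it in 485 (0.533%). The test was an edgeR quasi-likelihood F test that the F1 mean equals the arithmetic mean of the parents, at an adjusted p under 0.05. With total counts, 949 clusters (1.04%) were above and 1533 (1.69%) below, so the excess of clusters above turned into an excess below. All 485 clusters below with TMM and 949 of the 1802 above were called in the same direction with total counts, and none was called in the opposite direction. Without G3D001 replicate 2, 2562 clusters were above and 989 below, and the number below was 223 without F1 replicate 1 and 263 without F1 replicate 3. With A02 and C02 left out, 1750 clusters were above and 486 below. When the small RNA entries without a position were fitted in the same model, 1058 clusters were above and 176 below.

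**Figure D1:**
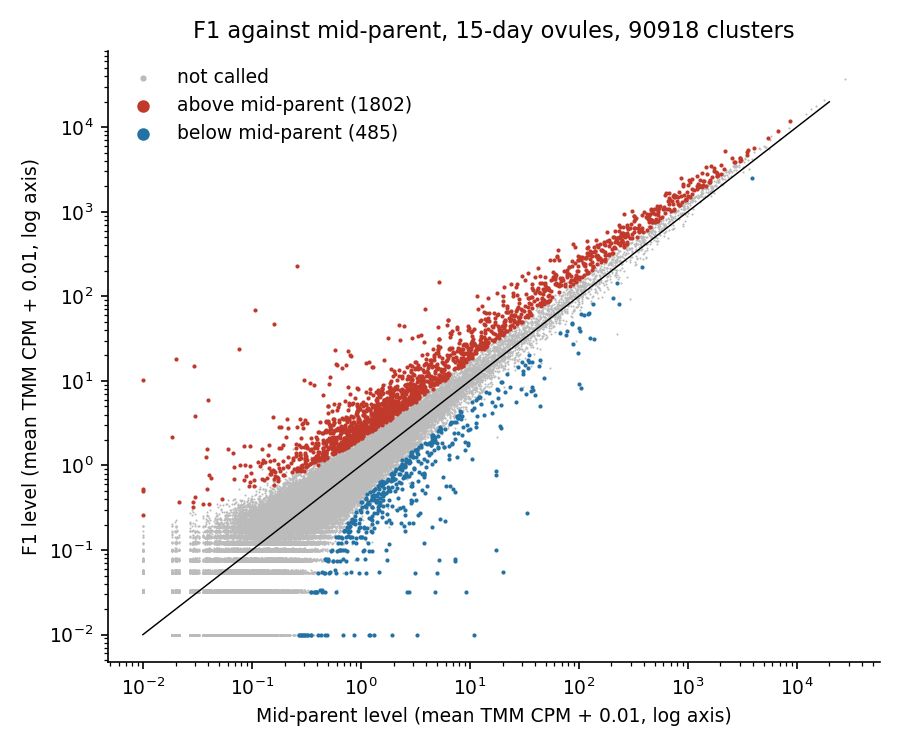
Mean level of the F1 (3 libraries) against the mid-parent level (mean of 3 Express617 and 3 G3D001 libraries) for 90918 clusters in OS15 ovules, both as TMM CPM plus 0.01 on log axes. Red points are the 1802 clusters above and blue points the 485 below, and the line marks equality.

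Deviations were mostly 2-fold or more. Of the clusters above, 332 were under 2-fold from the mid-parent, 1079 were 2 to 4-fold and 391 were at least 4-fold, with a median log2 ratio of 1.42. Of the clusters below, 30 were under 2-fold, 215 were 2 to 4-fold and 240 were at least 4-fold, with a median of -1.96. The median over all tested clusters was -0.04. In 24 clusters below, all 3 F1 libraries were at 0, and in 4 clusters above, all 6 parental libraries were at 0.

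The F1 mean was over both parental means in 1776 of the 1802 clusters above (98.6%). In 1344 of them (74.6%), all 3 F1 libraries were over all 6 parental libraries. The parents were within 2-fold of each other in 811 of these clusters. An F1 mean 2-fold or more over the mid-parent is over both parents by construction, because neither parent exceeds 2 times their mean. This covers the 1079 clusters at 2 to 4-fold and the 391 at 4-fold or more. No such bound holds below the mid-parent, so the shares above and below cannot be set against each other. Below the mid-parent, the F1 mean was under both parents in 261 of 485 clusters (53.8%) and between them in 224. The lower parent was G3D001 in 118 of these 224 and Express617 in 106. An F1 between its parents and below their mean is nearer the lower parent by construction. Together, 89.1% of the called clusters lay outside both parents, 80.5% with total counts and 80.9% without G3D001 replicate 2. These shares include the clusters that are over both parents by construction.

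Clusters called away from the mid-parent were more abundant than others. The median level was 4.32 CPM above and 1.79 CPM below, against 0.334 CPM over all tested clusters. The share called above was 0.32% under 1 CPM, 5.97% from 1 to 10 CPM, 17.1% from 10 to 100 CPM and 30.2% at 100 CPM or more, where 320 of 1059 clusters were above and 9 below. In this last class the median log2 ratio of all clusters was 0.35 with TMM but -0.03 with total counts, with 162 clusters above and 56 below. The order of the classes above remained with total counts, at 0.15%, 3.13%, 10.03% and 15.3%. The share called also follows the precision of the counts, and the part of precision in this order was not tested.

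Shorter clusters were called more often. The share above was 3.88% up to 100 bp, 2.19% from there to 500 bp, 1.98% to 1000 bp, 1.67% under 3000 bp and 1.43% at 3000 bp or more. The share below fell along the same classes from 0.816% to 0.275%. This order depended on the level. From 1 to 10 CPM, 10.8% of clusters up to 100 bp but 3.68% of those of 3000 bp or more were above, whereas at 100 CPM or more 22.3% of clusters over 100 and up to 500 bp and 34.5% of those of 3000 bp or more were above. The median length was 593 bp above, 540 bp below and 689 bp over all clusters.

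**Figure D2:**
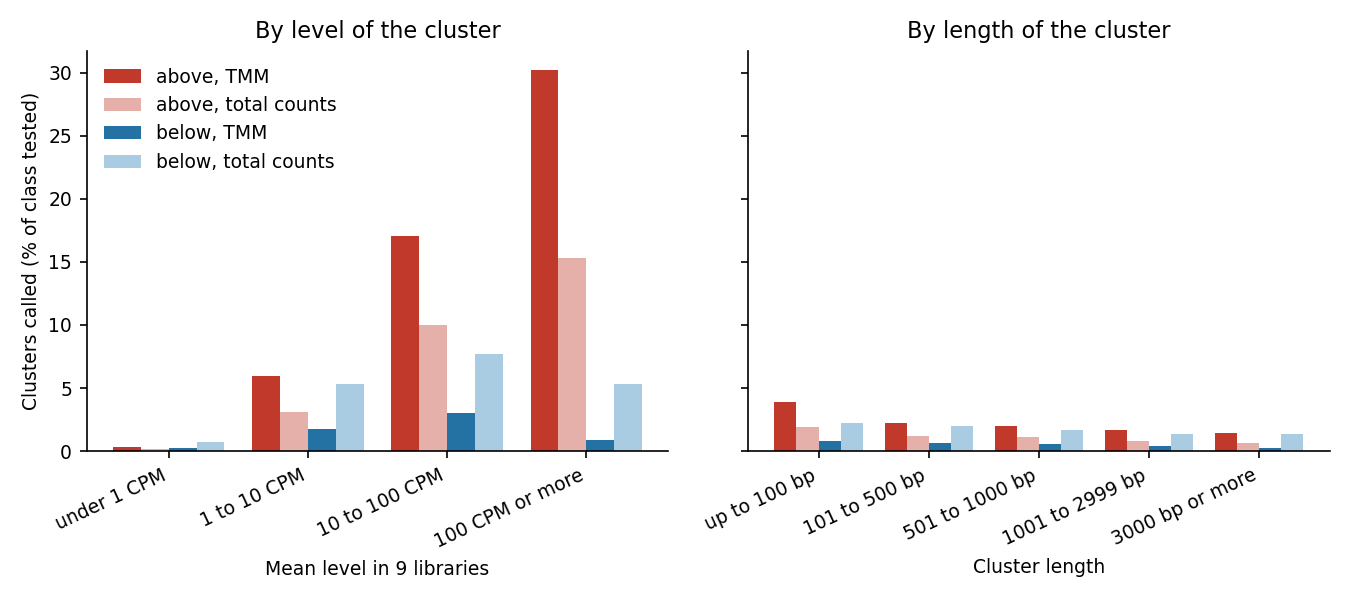
Percent of tested clusters called above (red) and below (blue) the mid-parent value, by mean level and by length of the cluster. Dark bars use TMM and light bars total counts. With TMM, the share above goes from 0.32% to 30.2% with level and from 3.88% to 1.43% with length.

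By chromosome, the share above was highest on A06 (4.69%), C05 (3.48%) and C06 (2.93%) and lowest on C09 (1.19%). These 3 chromosomes were also highest with total counts, at 3.32%, 2.24% and 1.81%. With total counts the share above was lowest on A08 (0.344%). The share below ranged from 0.229% on C07 to 0.974% on A03 with TMM and from 1.07% on C01 to 2.68% on A01 with total counts. The A subgenome had 2.29% of its clusters above and 0.647% below, and the C subgenome 1.87% and 0.45%. Along the chromosomes, the first of 5 equal parts had the highest share above (2.94%) and the middle part the lowest (1.49%). Of the clusters above, 43.6% had a cluster above as their next neighbour, compared with 3.54% of all clusters on chromosomes. Below the mid-parent these values were 16.9% and 1.03%.

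**Figure D3:**
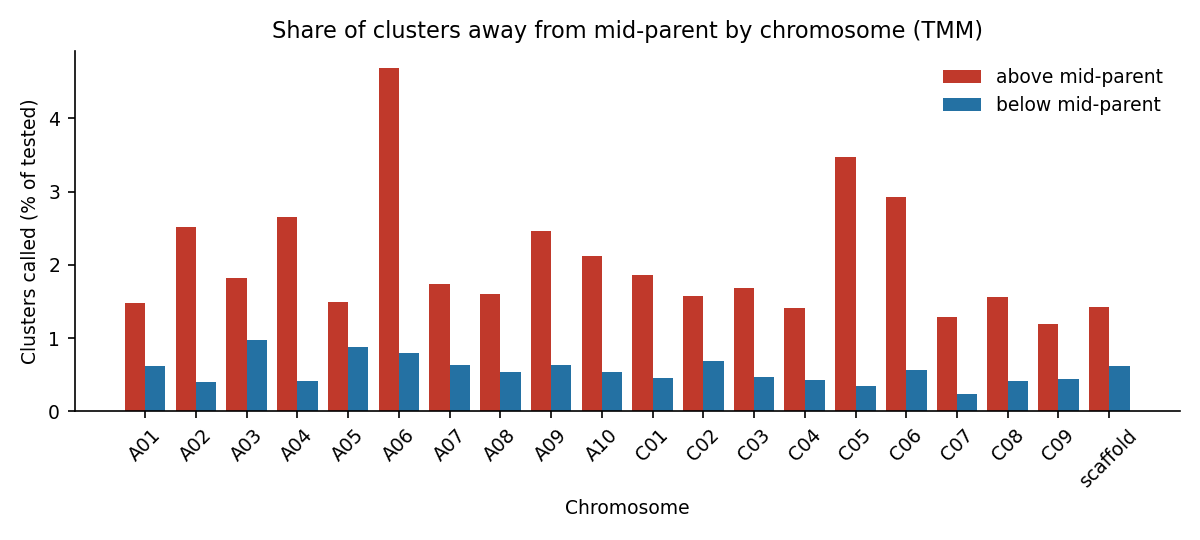
Percent of tested clusters called above (red) and below (blue) the mid-parent value with TMM, per chromosome and on unplaced scaffolds. A06, C05 and C06 are highest for clusters above, at 4.69%, 3.48% and 2.93%.

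Some of the clusters above lay close together in short blocks. Among 768 windows of 1 Mb with at least 20 tested clusters, the median share above was 1.16%. It was 51.1% on C05 from 9000001 to 10000000 (113 of 221 clusters), 42.9% on A06 from 7000001 to 8000000 (66 of 154) and 25.4% on C06 from 4000001 to 5000000 (43 of 169). In bins of 100 kb with at least 10 tested clusters, a share above of at least 50% was found in 12 bins, which form 10 blocks on A03, A04, A06, A09, C03, C05, C06 and C08. No bin reached this share below. The blocks were chosen by these calls, so their counts are a description. They held 404 clusters, of which 302 were above and none was below, and they made up 16.8% of all clusters above. With total counts 249 of the 404 were above, with DESeq2 295, with the unplaced entries in the model 282, and without each library in turn 280 to 307. The block on A03 from 18300001 to 18400000 had 7 of 14 clusters above and none with total counts.

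**Figure D4:**
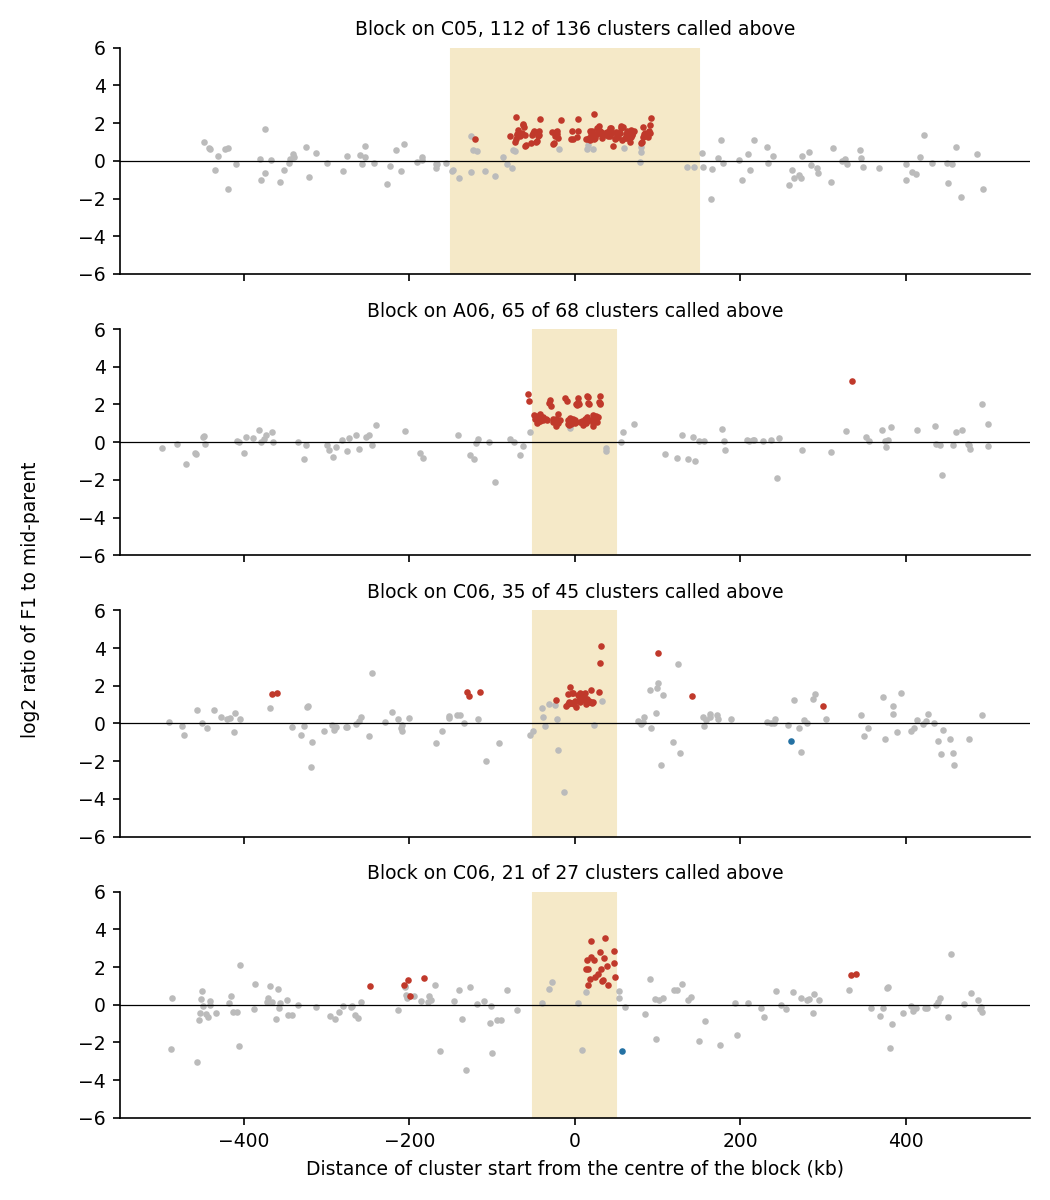
log2 ratio of the F1 to the mid-parent for each cluster within 500 kb of the centre of the 4 blocks with the highest share above, against the distance of the cluster start from the centre in kb. Red clusters were called above, blue below, grey neither, and shading marks the bins of the block. In the upper panels, 112 of 136 and 65 of 68 shaded clusters are above, and most clusters outside the shading lie around 0.

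The block on A06 ran from 7000617 to 7083094 and had 65 of 68 clusters above. Its summed level was 13880, 15410 and 13530 CPM in the Express617 libraries, 15850, 13880 and 13710 in the G3D001 libraries and 35560, 30730 and 31330 in the F1 libraries. The parents overlapped, and all F1 libraries were far over both. Without TMM factors (total-count CPM) the means were 15240 ± 1049 in Express617, 16250 ± 2353 in G3D001 and 27280 ± 1647 in the F1 (SD, n = 3). The F0 libraries, scaled together with the others of the stage, held 16630 to 20610 CPM. The median log2 ratio of its called clusters was 1.23, and their neighbours on either side were near the mid-parent. The named cluster of this window, Cluster_16870 (A06, 7020155 to 7021272), had 98.8, 102 and 103 CPM in Express617, 91.6, 62.5 and 69.4 in G3D001 and 519, 394 and 350 in the F1. Its log2 ratio was 2.26 ± 0.18 (SE, adjusted p = 6.07e-11), and the groups did not overlap.

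The block on C05 was the longest, from 9129972 to 9346398, with 112 of 136 clusters above. Its summed level was 7572, 8619 and 7661 CPM in Express617, 4175, 3732 and 3811 in G3D001 and 16270, 13270 and 14030 in the F1. Here Express617 was higher than G3D001, and the F1 was higher than Express617 in every library. The F0 held 9710 to 11880 CPM. Cluster_56173 (C05, 9179510 to 9179820) had 48.0, 60.05 and 52.1 CPM in Express617, 53.8, 55.9 and 60.6 in G3D001 and 328, 256 and 230 in the F1, a log2 ratio of 2.30 ± 0.18 (adjusted p = 3.21e-11). It had the smallest p of the clusters above with a length over 100 and up to 500 bp.

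C06 carried 2 blocks. The block from 4427455 to 4482374 had 35 of 45 clusters above and summed to 4529, 5051 and 4348 CPM in Express617, 6750, 5018 and 5844 in G3D001 and 12610, 10770 and 10320 in the F1. The block from 3763443 to 3800078 had 21 of 27 clusters above, the same number with total counts. It summed to 1925, 2141 and 1950 CPM in Express617, 1105, 1439 and 1011 in G3D001 and 4088, 3671 and 3651 in the F1. In both blocks all F1 libraries were over all parental libraries, and the F0 was at 5230 to 6306 and 2312 to 2663 CPM. Cluster_61187 (C06, 4550113 to 4550779), just outside the first block, was named for its window. It had 2.76, 3.57 and 5.59 CPM in Express617, 0.569, 0.124 and 0.976 in G3D001 and 44.8, 24.9 and 20.6 in the F1 (log2 ratio 3.73 ± 0.32, adjusted p = 3.1e-09).

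The clusters of the blocks were ovule loci. In leaves the A06 block summed to 4.86 ± 0.05 CPM in Express617, 6.30 ± 1.49 in G3D001 and 5.75 ± 1.69 in the F1 (SD, n = 3). On the scale of total counts, 98.0% of the 302 clusters above in the blocks were at least 10-fold lower in leaves than at OS15 in Express617, compared with 24.8% of the 18190 clusters of at least 1 CPM. By OS30 these clusters had dropped in Express617 and the F1 but not in G3D001. The level at OS30 was at least 2-fold lower than at OS15 in 94.4% of them in Express617 and 96.0% in the F1 but in 5.96% in G3D001. The clusters were chosen by a high F1 at OS15, which by itself favours a drop in the F1. The A06 block then held 2396 ± 155 total-count CPM in Express617, 3582 ± 382 in the F1 and 19080 ± 1285 in G3D001. Relative to its mid-parent at OS30, the F1 was below in 66 of the 68 clusters with TMM, with a median log2 ratio of -3.18 (-1.42 with total counts), where 21.4% of all clusters were below. No cluster of the A06 block was called in leaves.

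**Figure D5:**
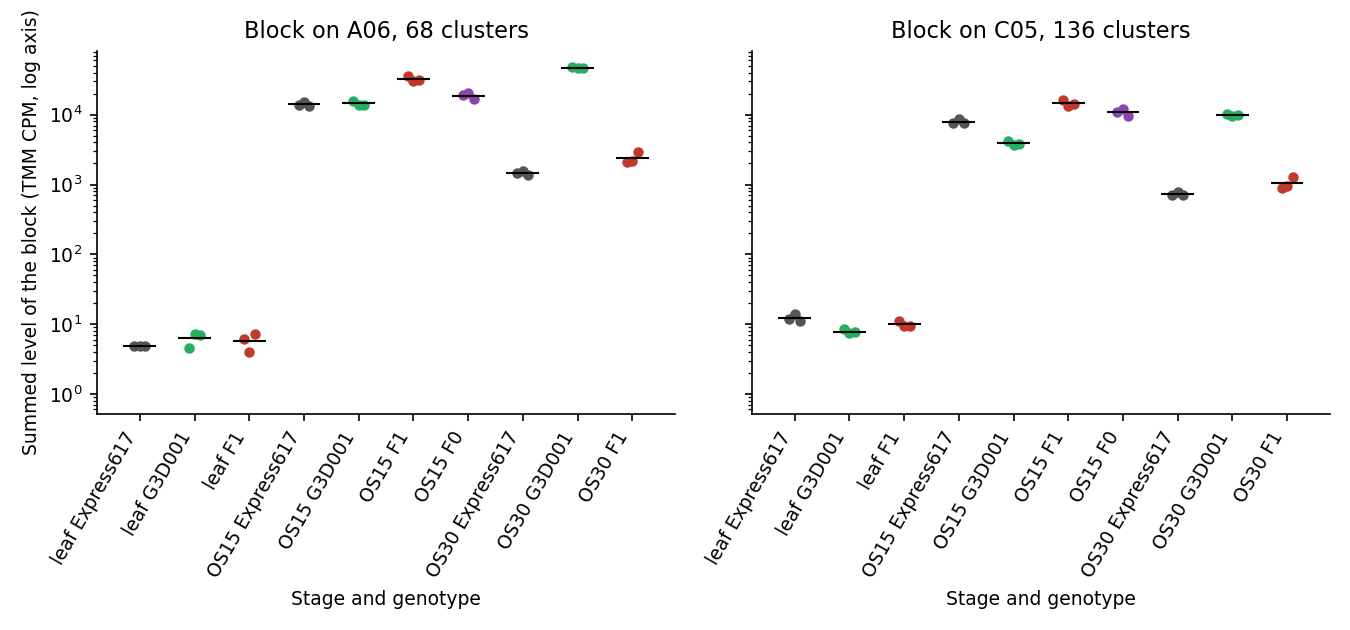
Summed level of the A06 block (68 clusters) and of the C05 block (136 clusters) in each library, in TMM CPM on a log axis, with factors set within each stage. Points are libraries and lines are means of 3. At OS15 the F1 is over both parents, in leaves all levels are near 10 CPM or under, and at OS30 G3D001 is far over Express617 and the F1.

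The 5 clusters above with the smallest p and at least a 2-fold deviation lay elsewhere, at low parental levels. Cluster_35968 (C01, 37375301 to 37376372) had the smallest p. It had 10.9, 6.45 and 9.47 CPM in Express617, 1.03, 1.80 and 1.77 in G3D001 and 166, 150 and 128 in the F1, a log2 ratio of 4.82 ± 0.23 (adjusted p = 6.78e-14). The F0 stayed between 3.77 and 14.7 CPM, and the log2 ratio of the F1 to the F0 was 4.23 (edgeR, adjusted p = 1.45e-11). The F1 libraries that chose the cluster enter this ratio too, so its p is not separate support. Another 2 of the 5 smallest p values above belonged to the same stretch of C01. Cluster_35962 (37319550 to 37321929) rose from 0.755 to 1.40 CPM in Express617 and 0.362 to 0.809 in G3D001 to 17.2 to 21.5 in the F1, with a log2 ratio of 4.61 ± 0.27. Cluster_35980 (37549400 to 37550519) had 0.549 to 1.40 CPM in Express617, 0.103 to 0.311 in G3D001 and 13.8 to 16.7 in the F1, with a log2 ratio of 4.69 ± 0.29.

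Between 37313930 and 37553455 on C01, 7 of 21 tested clusters were above, with log2 ratios of 3.76 to 7.98, and all 7 stayed above with total counts. This stretch was singled out after its values were seen. Whether the deletions that the study describes on C01 in G3D001 reach it was not examined here. The 7 clusters summed to 14.1, 8.23 and 13.2 CPM in Express617, 1.55, 3.42 and 2.68 in G3D001 and 222, 196 and 174 in the F1. The F0 libraries held 21.0, 5.89 and 7.29 CPM, near Express617. Unlike the dense blocks, this stretch rose with age in the parents. On the scale of total counts it went from 12.8 ± 4.11 total-count CPM at OS15 to 325 ± 31.5 at OS30 in Express617 and from 2.84 ± 1.06 to 146 ± 19.2 in G3D001 (SD, n = 3). The F1 had 165 ± 14.4 at OS15 and 120 ± 31.1 at OS30. In leaves the mean of each genotype was at most 0.895 total-count CPM.

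Cluster_3120 on A01 (28047704 to 28049959) followed the same course. It had 6.28, 5.08 and 6.26 CPM in Express617, 2.02, 1.62 and 2.07 in G3D001 and 81.3, 68.1 and 61.1 in the F1 (log2 ratio 4.17 ± 0.22, adjusted p = 1.78e-13). At OS30 its level was 147 total-count CPM in Express617, 109 in G3D001 and 57.3 in the F1. Cluster_37180 (6844696 to 6845669), on C02, for which the study describes a deletion in G3D001, did not. It had 0.822, 1.65 and 1.60 CPM in Express617, 0.052, 0.124 and 0.061 in G3D001 and 14.2, 14.9 and 17.4 in the F1 (log2 ratio 4.43 ± 0.29, adjusted p = 8.48e-12), and at OS30 it was at 0.743 total-count CPM in Express617 and 1.05 in the F1. All 5 clusters kept their call without each library in turn and with total counts.

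Among short and long clusters above, Cluster_83328 (C09, 57095899 to 57095987, 89 bp) led the class up to 100 bp, with 2.54 to 5.75 CPM in Express617, 1.24 to 1.81 in G3D001 and 27.6 to 35.4 in the F1 (log2 ratio 3.45 ± 0.24). Cluster_46912 (C03, 44844043 to 44848939, 4897 bp) led the class of 3000 bp or more. It had 178 to 211 CPM in Express617, 383 to 458 in G3D001 and 863 to 1156 in the F1 (log2 ratio 1.70 ± 0.15, adjusted p = 1.48e-09). In both, F1 libraries and parental libraries did not overlap.

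The most abundant clusters above deviated little, and their calls rested on the scaling. Cluster_70434 (C07, 37087758 to 37089325) had 8291, 9487 and 8515 CPM in Express617, 8874, 8213 and 9007 in G3D001 and 11860, 12360 and 11230 in the F1. Its log2 ratio was 0.44 ± 0.10 (adjusted p = 0.00455) with TMM and 0.06 (adjusted p = 0.816) with total counts. Cluster_24672 (A08), Cluster_61002 (C06), Cluster_42329 (C03) and Cluster_40803 (C02) had log2 ratios of 0.41 to 0.59 with TMM and 0.03 to 0.20 with total counts, where none of them was called. Cluster_24672 also lost its call with RLE factors. Without single libraries, the calls ended at log2 ratios of 0.40 in Cluster_70434 (F1 replicate 2), 0.37 to 0.42 in Cluster_24672 (Express617 replicates 1 and 3, F1 replicates 1 and 2), 0.43 to 0.44 in Cluster_61002 (F1 replicates 1 and 2) and 0.39 in Cluster_42329 (F1 replicate 1). In Cluster_40803 G3D001 (4133 to 5121 CPM) was near the F1 (4993 to 5692) and Express617 (2083 to 2693) was lower. This cluster lies on C02, for which the study describes a deletion in G3D001, and the origin of its G3D001 reads was not tested.

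Below the mid-parent, the leading clusters had reads in one parent and almost none in the other. All reads were aligned to the Express617 assembly, and sequence differences of G3D001 at these loci were not examined. Cluster_8150 (A03, 10256960 to 10258575) had 220, 213 and 202 CPM in Express617, 0.207, 0.56 and 0.183 in G3D001 and 7.94, 7.16 and 9.40 in the F1. The log2 ratio was -3.70 ± 0.24 (adjusted p = 1.17e-11). The F1 lay between the parents, over all G3D001 and under all Express617 libraries, and against a geometric mid-parent the log2 ratio was -0.01 and was not called. The F0 was at 225 to 291 CPM, like Express617, and the log2 ratio of the F1 to the F0 was -4.94 (edgeR, adjusted p = 7.16e-17). Here too the F1 libraries that chose the cluster enter the ratio, so its p is not separate support. Cluster_51721 (C04, 25722983 to 25725355) had 8.85 to 11.96 CPM in Express617 and 12.3 to 14.2 in the F0. Its F1 libraries (0.195 to 0.261 CPM) lay within the range of G3D001 (0.061 to 0.31), not over it. The log2 ratio was -4.58 ± 0.46 to the mid-parent and -2.71 to a geometric mid-parent. In Cluster_23952 (A08, 11329608 to 11334900, 5293 bp), the longest of the named clusters, G3D001 was at 0 in every library, Express617 at 4.34 to 7.97 CPM and the F1 at 0.065 to 0.39 (log2 ratio -3.74 ± 0.50). The F0 held 0.915 to 11.2 CPM at this locus, and the log2 ratio to a geometric mid-parent was 0.18.

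Other loci were low in Express617. Cluster_32212 and Cluster_32213 (C01, 1348069 to 1348381 and 1349532 to 1349682) had 10.3 to 18.1 and 10.5 to 17.7 CPM in G3D001, and at most 0.104 and 0.206 CPM in Express617. The F1 was at most at 0.143 and 0.131 CPM, with 1 library at 0 in each (both adjusted p = 5.76e-11). In leaves both were also below the mid-parent, at 120 and 111 total-count CPM in G3D001 and 0.408 and 0.367 in the F1 (both adjusted p = 6.87e-26). Cluster_16319 (A06, 1179325 to 1179525) had 0.103 to 0.206 CPM in Express617, 13.0 to 15.9 in G3D001 and 0.327 to 0.572 in the F1 (log2 ratio -3.95 ± 0.35). Its window on A06, from 1000001 to 2000000, had the highest share below (12.8%, 10 of 78 clusters). These 10 clusters summed to 25.8, 32.9 and 27.5 CPM in Express617, 108, 136 and 108 in G3D001 and 23.4, 22.2 and 21.9 in the F1. All F1 sums were under all Express617 sums, and 7 of the 10 were at least 2-fold higher in G3D001. Over all 78 clusters of the window the order was another, with 2433 to 3010 CPM in Express617, 142.7 to 176 in G3D001 and 1639 to 1893 in the F1, which is over the mid-parent.

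In the next windows for clusters below, on A05 from 10000001 to 11000000 (6.72%, 9 of 134) and on C06 from 15000001 to 16000000 (5.93%, 8 of 135), the named clusters were under both parents. Summed over all its clusters, the A05 window had 1135 to 1214 CPM in Express617, at least 2004 in each G3D001 library and 2111 to 2337 in the F1. Cluster_14529 (A05, 10636900 to 10637547) had 37.6, 40.0 and 29.6 CPM in Express617, 160, 206 and 123 in G3D001 and 21.3, 18.7 and 23.9 in the F1 (log2 ratio -2.22 ± 0.21, adjusted p = 1.87e-08). Cluster_62477 (C06, 15676497 to 15676795) had 15.1, 17.6 and 12.5 CPM in Express617, 55.5, 70.3 and 48.7 in G3D001 and 7.58, 6.96 and 8.29 in the F1 (log2 ratio -2.27 ± 0.22, adjusted p = 3.36e-08). In both, all F1 libraries were under all parental libraries, and G3D001 was the higher parent. Cluster_60608 (C06, 385938 to 386001, 64 bp) was the leading cluster below of up to 100 bp, with 0.705 to 8.51 CPM in Express617, 4.71 to 15.3 in G3D001 and 0.392 to 0.644 in the F1 (log2 ratio -3.76 ± 0.53).

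The most abundant clusters below had log2 ratios of -0.65 to -1.53 with TMM and -1.04 to -1.96 with total counts. Cluster_3529 (A02, 3052606 to 3053210) had 1330 to 1464 CPM in Express617, 7141, 3829 and 8456 in G3D001 and 2308 to 2781 in the F1 (log2 ratio -0.66 ± 0.16, adjusted p = 0.0144). It and Cluster_3249 lie on A02, for which the study describes a duplication in G3D001. Cluster_81789 (C09, 42052829 to 42054019) had 168, 864 and 192 CPM in G3D001, where replicate 2 alone was high, 55.0 to 57.5 in Express617 and 68.6 to 94.4 in the F1. Its log2 ratio of -1.53 ± 0.31 came to -0.58 without that library. Cluster_3249 (A02, 35721 to 36109), Cluster_32216 (C01, 1366815 to 1368272) and Cluster_2691 (A01, 24370285 to 24370971) had log2 ratios of -0.78, -0.65 and -1.13, and Cluster_32216 was under all parental libraries. Calls ended without single libraries at log2 ratios of -0.46 to -0.63 in Cluster_3529 (G3D001 replicate 3, F1 replicates 2 and 3), -0.70 to -0.72 in Cluster_3249 (F1 replicates 2 and 3), -0.48 to -0.69 in Cluster_32216 (Express617 replicates 1 and 3, G3D001 replicate 3, F1 replicates 1 and 3) and -1.51 in Cluster_81789 (F1 replicate 1).

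In leaves, 0.157% of 89873 clusters were above the mid-parent (141) and 0.731% below (657). Of the 1802 clusters above at OS15, 11 were above in leaves (0.61% of them and 7.8% of the leaf clusters above). Of the 485 clusters below, 90 were below in leaves (18.6% of them and 13.7% of the leaf clusters below). With total counts 3.49% of all clusters were above in leaves (3134) and 0.356% below (320). Of the clusters above at OS15, 71 were then above in leaves (3.94%), and of those below, 78 were below (16.1%). At OS30, where 10.8% of 91053 clusters were above and 21.4% below, 53 of the clusters above at OS15 were above (2.94%) and 1307 below (72.5%). Of the clusters below at OS15, 12 were above and 293 below (60.4%). With total counts 225 of the clusters above at OS15 were above at OS30 and 633 below, against 36.3% and 4.62% of all clusters. The libraries of these stages are not shared with OS15, and scaling turned the balance of all clusters in leaves and at OS30, so only the order of shares within a scaling can be read.

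Entries without a position carry an RNA sequence and are the only sequences of the table. Of 9208 tested, 2 were above the mid-parent (0.0217%) and none below by edgeR, whereas 930 were above and 325 below at an unadjusted p under 0.05. DESeq2 called 428 above and 121 below, and edgeR called none without any single library or with total counts. The 2 called entries are shown with their relatives of smallest p, and the run shared with the relative is in capitals:
Entry 1: gAUCCUGGCUGCGGAACCA
Relative of entry 1: uAUCCUGGCUGCGGAACCA
Second relative of entry 1: cAUCCUGGCUGCGGAACCA
Entry 2: AUGUAGUUUGGGUCUCUGUCAUGg
Relative of entry 2: AUGUAGUUUGGGUCUCUGUCAUG

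Entry 1 (19 nt) had 28.2, 19.6 and 23.7 CPM in Express617, 11.99, 16.3 and 15.1 in G3D001 and 88.5, 124 and 85.0 in the F1 (log2 ratio 2.37 ± 0.21, adjusted p = 0.0219). Its first relative had 46.6, 58.0 and 40.4 CPM in the F1 and at most 15.9 in a parental library (log2 ratio 2.25, adjusted p = 0.0524). Entries of 20, 21, 22 and 23 nt that held entry 1 whole are not shown. Their log2 ratios were lower, at 0.77, 0.50, 0.34 and -0.09. Counting itself, 21 entries of 18 to 34 nt shared a run of at least 16 nt with entry 1, of which 20 ended in CCA, the ending of mature tRNAs. Only 16 of the 21 were over the mid-parent, and log2 ratios ran from -1.21 to 2.37. An unadjusted p under 0.05 was reached by 5 of the 21, and differences between entries were not tested. Entry 2 (24 nt) had 33.2, 34.9 and 34.6 CPM in Express617, 31.9, 21.1 and 29.0 in G3D001 and 108, 117 and 100.6 in the F1 (log2 ratio 1.82 ± 0.17, adjusted p = 0.0219). The relative, shorter by the last base, had a log2 ratio of 1.79 at 3.65 to 3.97 CPM in the F1 (adjusted p = 0.0685).

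Among the next entries by p, one pair was at 0 in every Express617 library, low in G3D001 and higher in the F1, and 2 of the 5 entries with the smallest p below the mid-parent differed only by a last base, with the shared run in capitals:
Absent from Express617, 24 nt: auggaccucugauauuaucaucgg
Absent from Express617, 23 nt: caaagaaagaaacaagggcaaug
Below mid-parent, 34 nt: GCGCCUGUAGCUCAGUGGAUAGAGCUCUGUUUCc
Below mid-parent, 33 nt: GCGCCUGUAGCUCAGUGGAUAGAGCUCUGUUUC

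The 24-nt entry absent from Express617 had 2.53, 2.61 and 3.97 CPM in G3D001 and 19.1, 16.5 and 16.8 in the F1, and the 23-nt entry 6.31, 3.67 and 5.37 in G3D001 and 27.9, 29.4 and 26.6 in the F1 (both adjusted p = 0.0505). F1 libraries were over all G3D001 libraries in both. The 33-nt entry had 14.1 to 16.5 CPM in Express617, 54.4 ± 20.3 (SD, n = 3) in G3D001 and 10.1 to 10.6 in the F1, and the 34-nt entry 8.17 to 10.5, 16.1 to 24.3 and 3.32 to 5.29 (both adjusted p = 0.0935). The F1 was the lowest group in both without overlap. The median log2 ratio of all tested entries was 0.28, with 1.17 over the 1625 entries of 21 nt, 0.22 over the 2685 of 24 nt and -0.47 over the 149 of 35 nt.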

How the data were processed

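The authors removed reads under 18 bp with seqtk 1.3 and aligned and counted the rest on the Express617 assembly with ShortStack 3.8.5. The deposited values are raw counts per sRNA cluster and library, not normalized or pooled. Entries with a sequence in place of a position (2.53% to 6.01% of an OS15 library) were kept out of library sizes. Clusters without a count in the 9 libraries (142) were removed. edgeR 4.0.16 in R 4.3.3 fitted genotype with TMM factors and trended dispersion. The hypothesis that the F1 mean equals the arithmetic mean of the parental means was tested with a quasi-likelihood F test, and Benjamini-Hochberg adjustment covered all clusters. Unplaced entries were tested apart with the library sizes of the clusters. Other stages were scaled within the stage. F0 levels come from a fit of the 12 OS15 libraries.

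In simulated OS15 data (90320 clusters, 50 changed per fold), unchanged clusters had the F1 at the arithmetic mean of the parents. There edgeR called 100% of 4-fold, 56% of 2-fold, 92% of 0.25-fold and 36% of 0.5-fold changes and 41 unchanged clusters. The changed clusters were drawn only from clusters with higher counts. These shares therefore do not cover the 72728 tested clusters under 1 CPM.

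Named clusters had all 3 F1 libraries on the called side. They were the 5 smallest p with at least 2-fold deviation, the 5 highest mean CPM, the smallest p per length class, and the smallest p in each of the 3 windows of 1 Mb with the highest share called, above and below, with the 5 smallest p of unplaced entries. Members and lists were chosen with earlier results of these data known. The 100-kb blocks and total counts at leaf and OS30 were added after the values were seen. Alternatives were RLE factors, total counts, a minimum of 10 counts in 3 libraries, DESeq2 1.42.0, limma 3.58.1, a geometric mid-parent, a replicate block, dispersion from 12 libraries, a 2-fold minimum, leaving out A02 and C02, joining unplaced entries and leaving out each library. For the DESeq2 alternative, its size factors and dispersions entered a likelihood ratio test of the same hypothesis, computed outside DESeq2. Where nothing says that libraries came from separate plantings, p-values measure the spread between these libraries. Intervals on log2 ratios are standard errors from the fitted model, whose dispersion is shared in part between clusters. Intervals on levels are standard deviations of 3 libraries. Figures used matplotlib 3.10.9. Gene annotation and microRNA names were not used here.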

Additional observations from a re-analysis of the deposited data

Results flagged for a closer look

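In 15 of the named clusters, all 3 F1 libraries lay on one side of the mid-parent at OS15 and all on the other at OS30. The difference between the stages was not tested. The OS30 log2 ratios were -1.81 in Cluster_35968, -1.69 in Cluster_35962, -1.38 in Cluster_35980 and -2.22 in Cluster_3120, which were over 4 at OS15. In the loci of the dense blocks or near them, they were -4.51 in Cluster_56173, -3.40 in Cluster_16870 and -2.64 in Cluster_61187, and in the leading shortest and longest clusters above -1.93 in Cluster_83328 and -3.31 in Cluster_46912. In the abundant clusters they were -2.08 in Cluster_70434, -2.08 in Cluster_24672, -2.01 in Cluster_61002, -2.49 in Cluster_42329 and -2.39 in Cluster_40803. With total counts these 14 ratios were also negative, from -2.66 to -0.51. Cluster_51721 turned the other way, from -4.58 at OS15 to 0.25 at OS30 (adjusted p = 0.275).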

How the results depend on the processing

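The number of clusters above the mid-parent (1802) was 949 with total counts, as was the number called with both scalings, 3939 with a geometric mid-parent and 1058 with unplaced entries in the model. The number below (485) was 1533, 259 and 176 under these alternatives and 313 with limma on linear CPM. With the geometric mid-parent, 17 clusters below turned to above. On simulated data it called 2225 unchanged clusters. Their F1 was set at the arithmetic mean, which is over the geometric mean wherever the parents differ, so these calls are not a measure of error. The share outside both parents (89.1%) was 80.5% with total counts and 64.3% with the geometric mid-parent. RLE factors, the minimum count, DESeq2, 12-library dispersion, the 2-fold minimum and leaving out A02 and C02 kept both counts within 1.5 times. Without each library in turn, 1274 to 2562 clusters were above, 223 to 989 below and 80.9% to 92.7% outside both parents. The highest counts came without G3D001 replicate 2 and the lowest without F1 replicate 1, and 263 were below without F1 replicate 3. Unplaced entries above (2) and below (0) were 0 and 0 with total counts and without each library, 36 and 6 with the minimum count, 428 and 121 with DESeq2, 257 and 10 with limma, 2919 and 53 with the geometric mid-parent, 20 and 4 with 12-library dispersion and 196 and 39 in the joint model. The cause was not tested.

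With a replicate block, 2067 clusters were above and 675 below, 87.0% lay outside both parents, and 0 unplaced entries were above. Same-numbered libraries had correlations of -0.142 to 0.129 in their deviations over 9 pairs. Between Express617 and G3D001 they were 0.0929, 0.035 and 0.129, and all differently numbered pairs were negative. With the F1 they were -0.00697, 0.013 and -0.142 for Express617 and 0.0997, 0.119 and -0.00465 for G3D001. These weak values cannot decide whether the numbers pair the samples. Of 29 named clusters, all kept their call with the block, 28 with RLE factors and 24 with total counts. With the geometric mid-parent 25 kept it and Cluster_23952 turned to 0.18, which is the ratio to a mean that 0 in G3D001 pulls down. Under 1 CPM, 0.32% of clusters were above, and the part of depth in this was not tested.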

Other observations

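Clusters above the mid-parent did not share one course with age. Over the 1569 clusters above with a mean of at least 1 CPM, and on the scale of total counts, 26.9% were at least 2-fold higher at OS30 than at OS15 in Express617 and 47.7% at least 2-fold lower, compared with 40.2% and 19.3% of the 18190 clusters of this level. In the F1 these shares were 11.9% and 63.6%, compared with 37.6% and 21.02% of all, and in G3D001 28.3% and 16.95%, compared with 15.9% and 16.1%. For the 1268 of these clusters outside the dense blocks they were 32.97% and 36.6% in Express617, 14.4% and 55.8% in the F1 and 29.97% and 19.6% in G3D001. All these clusters were chosen by a high F1 at OS15, which by itself favours a lower level at OS30 in the F1. In leaves, 65.5% of the 1569 clusters were at least 10-fold lower than at OS15 in Express617, against 24.8% of all. Among the 332 clusters below at this level, 37.05% were at least 2-fold higher and 40.7% at least 2-fold lower at OS30 in Express617, and 12.7% and 49.1% in G3D001.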
